A study of Rhamphochromis sp. 'chilingali' and Astatotilapia calliptera with 50 samples.

Results

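The 200 genes described here were those that fell most in both species between 4 and 30 somites, out of 28001 genes in the table. They were chosen by their group means, taken as log2 of the mean normalized count plus 1: the mean had to be highest at 4ss in 2 cichlid fishes, AC (Astatotilapia calliptera 'Mbaka') and RC (Rhamphochromis sp. 'chilingali'), with a difference between the species below 1 on the log2 scale at 4ss. The 3650 genes that met these conditions were ranked by the smaller of the falls from 4 to 30ss in AC and RC, and the first 200 were taken. The falls from 4ss to 30ss and the species difference at 4ss therefore chose the members and are given without a test.

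The RNA came from single whole wild-type embryos of tank-reared stocks, dissected off the yolk, and all embryos of a species were siblings from 1 egg clutch, so that species and clutch cannot be told apart. There were 24 AC embryos, 3 at each of 4, 10, 15, 18, 20, 22, 26 and 30ss, and 26 RC embryos, 3 at each of the same stages and at 37ss but 2 at 4ss. The AC embryos set against RC at 26ss carry 27 somites in their labels. No embryo was treated or genetically altered. Between 17619762 and 27454591 reads per embryo were counted on genes. Such embryos hold many tissues, so fewer cells of a type and less RNA per cell cannot be told apart. How much of the membranes around the yolk stayed on each embryo is not given, and its part in differences between embryos was not tested. The values take no account of transcript length and are compared between embryos, not between genes.

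Somitogenesis begins while gastrulation movements are still ending. Genes active at that time include secreted BMP ligands and their modulators, which set ventral fates, the FGFs of the tailbud, factors of the endoderm and of the ectoderm, and early neural plate genes. Many of these are used briefly and in few cells, before neural crest, somites and organs expand.

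Of the 200 members, 12 were paired with a symbol in the study's supplementary tables, which name 238 genes of the table in all, and the other members are known here by their identifiers. The named members were the BMP-pathway genes szl and bmp2b, the transcription factors sox32, irx7, sp7, gata3, foxi1, zic2a, mych and ovol1a, the growth factor fgf8a and the matrix gene fn1a. Gene ontology terms were given there for 24 members. Those tables list genes that the study selected as differing between the species in these same embryos, so a species difference in a named member is not independent evidence.

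Some embryos stood apart from their siblings. The 200 genes that rose most, taken by the mirror image of the rule after the values were seen, had an average log2(normalized count + 1) of 3.38 in RC embryo 2 of 10ss against 4.71 and 4.75 in its siblings. It was 4.72 in RC embryo 3 of 15ss against 6.27 and 6.01, and 5.38 in RC embryo 1 of 18ss against 6.93 and 6.88. Each of these 3 embryos was thus lower than its siblings by over 1 log2 unit in genes that rise across somitogenesis. AC embryos 1 and 3 of 22ss stood apart in a subset of the members described below. Counts of calls at these stages are given with and without the replicates concerned, and the descriptions of group means with and without the embryos, an alternative chosen after the values were seen. The part of these embryos beyond those values was not tested.

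At 4ss the members spanned group means from 2.87 to 46636 normalized counts in AC, with a median of 471, and from 2.66 to 38662 in RC, with a median of 403. At 30ss the medians were 38.9 in AC and 39.6 in RC. By then 62 members in AC and 64 in RC had a group mean under 10 normalized counts, and 6 and 8 members had no read in any embryo of 30ss. The smaller fall ran from 9.39 at rank 1 to a median of 2.35 and to 1.73 at rank 200. The 5 ranks just inside the threshold had 1.73 each after rounding, and the 5 just outside had 1.71 to 1.73, so no gap separated the members from the genes that followed. Of the 200, 195 passed the filter for testing (a minimum of 10 normalized counts in 2 or more embryos) and 5 unnamed members did not. The count of tested members lower at 30ss than at 4ss was 170 in AC, where 18.8% of all 21123 genes tested were lower, and 182 in RC, where 11.1% were; nothing is read from these counts, since the rule used that contrast.

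Of the BMP and ventral genes, szl (sizzled), a secreted regulator of BMP signalling in fish embryos, ranked 1. At 4ss it had 5017, 4230 and 1886 normalized counts in the AC embryos and 1588 and 3057 in RC. At 30ss no embryo of either species exceeded 3.66. bmp2b, a BMP ligand that patterns the ventral side of the zebrafish embryo, had 1803, 983 and 1217 at 4ss in AC and 1158 and 925 in RC, against 107 to 167 in AC and 141 to 174 in RC at 30ss. gata3, a zinc finger factor of ventral ectoderm, fell from group means of 7589 in AC and 5285 in RC to 1221 and 1059. foxi1, a forkhead factor of preplacodal and epidermal ectoderm, fell from 3205 and 2077 to 298 and 479. szl thus went close to 0, whereas gata3 and bmp2b were still clearly counted in every embryo at 30ss.

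Among the factors of endoderm and ectoderm, sox32, which specifies endoderm in zebrafish, ranked 5. Its 4ss values were 6876, 4877 and 1505 in AC and 3947 and 1000 in RC, and at 30ss it had 9.46 to 80.4 in AC and 22.9 to 39.0 in RC. The spread between sibling embryos at 4ss was wide, but both groups of 4ss lay above every embryo of 30ss. ovol1a, a zinc finger factor of epithelia, fell from 551, 434 and 251 in AC and 967 and 575 in RC to between 102 and 136 and between 138 and 190. sp7 (osterix), known as an osteoblast factor, fell from a group mean of 527 in AC and 647 in RC at 4ss to 29.8 and 96.9 at 30ss.

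irx7, an Iroquois homeobox factor of the neural plate and hindbrain, ranked 17. It had 5481, 4547 and 8165 normalized counts at 4ss in AC and 3194 and 3951 in RC, and 155, 94.0 and 154 against 214, 212 and 269 at 30ss. zic2a, a zinc finger factor of the neural plate and dorsal neural tube, fell from 6166 and 3480 to 865 and 959, and had nearly reached this level by 15ss in AC. mych, a Myc family gene linked to neural crest in zebrafish, went from 3681 and 2428 to 642 and 717. fgf8a, a growth factor of the tailbud and midbrain-hindbrain boundary, went from 1407 and 770 to 79.7 and 150. fn1a, which encodes a fibronectin of the extracellular matrix used in somite and heart formation, had means of 46636 in AC and 38662 in RC at 4ss. Its AC mean was lowest at 18ss, at 3472, and stood at 9062 at 30ss, so that it was not a steady faller.

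**Figure D1:**
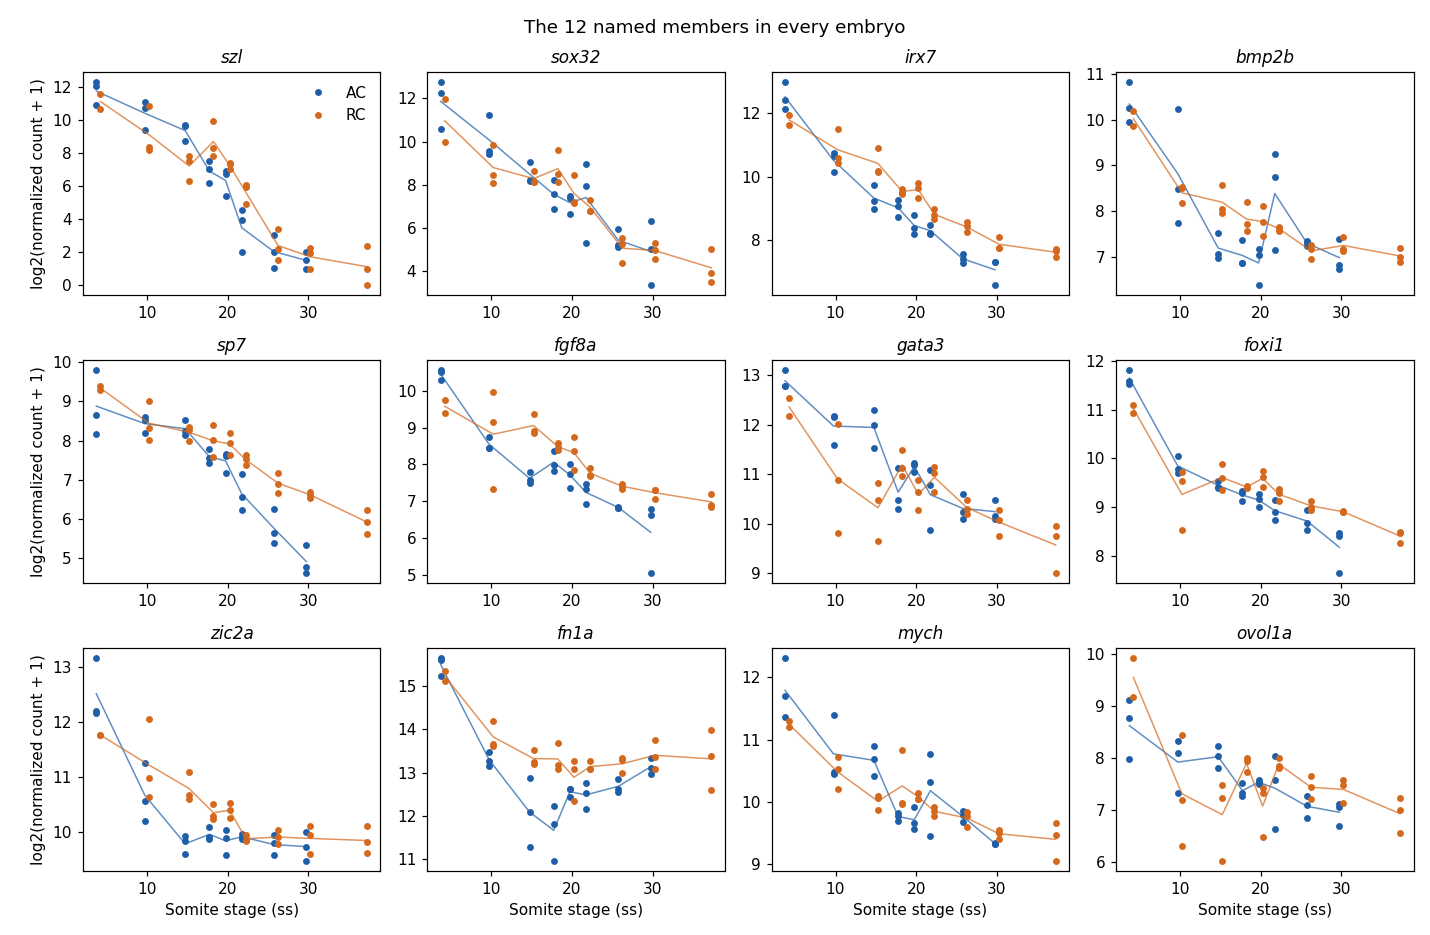
The 12 named members in single embryos: log2 of normalized count plus 1 against somite stage, 1 point per embryo, lines through the means of those log2 values, AC in blue and RC in orange, with a separate vertical scale in each panel. szl is under 10 normalized counts by 26ss in both species, while fn1a is lowest in AC at 18ss (group mean 3472 normalized counts) and stands at 9062 at 30ss.

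The supplement also annotates unnamed members. ENSACLG00000021576 (rank 4), with terms for transcription, had 5349 to 6877 normalized counts in AC and 2837 and 3599 in RC at 4ss, and 8.72 to 18.4 in AC and 22.0 to 57.2 in RC at 30ss. ENSACLG00000015234 (rank 6), annotated to transcription and organ morphogenesis, had 3275 to 8246 in AC and 3126 and 5476 in RC at 4ss and 37.8 to 53.5 in AC and 107 to 123 in RC at 30ss. ENSACLG00000019566 (rank 36) carries terms for gastrulation and response to growth factors, ENSACLG00000018705 (rank 73) for erythrocyte differentiation and heart development, ENSACLG00000019192 (rank 104) for convergent extension, and ENSACLG00000007281 (rank 182) for somitogenesis. The supplement's term lists are shortened in part, so the share of members with any term was not compared with that of other genes.

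The share of the fall that was covered uses the 4 and 30ss means that the rule used and is a description. At 10ss the median member had covered 39.4% of its log2 fall in AC and 40.1% in RC, and at 15ss 65.3% and 63.7%. At 18ss it was 83.0% in AC and 53.8% in RC. At 20ss the medians were 81.0% and 76.8%, and at 26ss 92.9% and 94.0%. Without the embryo of each RC group that was low in rising genes, the RC medians were 41.1% at 10ss, 68.6% at 15ss and 61.5% at 18ss. A mean that fell at every step was the exception, seen for 23 members in AC and 19 in RC. Many were lowest before 30ss. In AC the lowest mean was at 18ss for 30 members and at 20ss for 28, and in RC it was at 18ss for 4 and at 20ss for 33.

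Not all members took the same path. In 45 members the AC mean at 22ss was more than 2-fold that at 20ss, that is, higher by more than 1 on the log2 scale, and these are described apart from the other 155. This split was made after the values were seen, and AC at 20 and 22ss chose it, so what follows on it is a description. The 45 include bmp2b, the one of them with a symbol, and the members of rank 3, 8, 9 and 10.

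In the other 155 members the averages of sibling embryos differed by up to 0.46 log2 units within a stage, the widest being AC at 10ss, AC at 22ss (0.45) and RC at 18ss (0.42). Averaged over these members, log2(normalized count + 1) was 8.08 to 8.43 in the AC embryos of 4ss, 6.43 to 6.51 at 15ss and 5.02 to 5.18 at 30ss. In RC it was 8.02 and 8.26 at 4ss, 6.32 to 6.43 at 15ss, 5.30 to 5.47 at 30ss and 5.04 to 5.27 at 37ss. The mean of these averages was higher than at the stage before in RC at 18ss, where the 3 embryos, at 6.52, 6.52 and 6.94, lay above all 3 of 15ss, and slightly so in AC at 20ss (6.05 after 6.01).

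The 45 members behaved differently in some groups. Their averages differed between siblings by 2.77 to 3.75 log2 units in AC at 4, 10 and 22ss and in RC at 10ss. In the other groups the range was 0.09 to 1.22. In AC at 4ss their average was 9.35 and 8.62 in embryos 1 and 2 but 5.60 in embryo 3. The AC embryos of 30ss had 4.79 to 5.99, so that embryo 3 of 4ss lay among them. The high AC average of the 45 at 4ss thus rested on embryos 1 and 2. At 10ss the average of the 45 was 8.52 in AC embryo 1 against 5.0 and 5.95, and 7.62 in RC embryo 1 against 4.86 and 5.90. Between 15 and 20ss all AC embryos were low, at 3.95 to 4.74. At 22ss embryos 1 and 3 stood at 8.10 and 7.41 and embryo 2 at 5.21. High embryos thus occurred at several stages, in both species, next to siblings that were low.

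Most of the 45 were high in the same embryos. In AC at 4ss, embryos 1 and 2 both lay above embryo 3 for 42 of the 45, and at 10ss embryo 1 lay above both others for 40 in AC and 42 in RC. For the other 155 these counts were 62, 63 and 73. In RC at 18ss embryo 1 lay above both siblings for 36 of the 45 and for 110 of the 155, and in AC at 22ss embryos 1 and 3 both lay above embryo 2 for 40 of the 45 and for 92 of the 155, so that at these stages most of the other members were high in the same embryos as the 45. Taking each embryo's deviation from the mean of its group, the median correlation between pairs of the 45 members was 0.73 over the 18 AC embryos of the stages other than 20 and 22ss and 0.50 over the 26 RC embryos, against 0.03 and 0.05 between pairs of the other 155. Embryos of a group share their mean in this measure, and members measured in the same library share that library. The deviation of the 45 and that of the log2 reads on genes had a correlation of -0.08 over the 50 embryos.

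ENSACLG00000017012 (rank 8) gives the pattern in single embryos. Its normalized counts were 1105, 699 and 28.3 in AC at 4ss and 1038, 47.2 and 114 at 10ss. At 18 and 20ss no AC embryo exceeded 2.04, at 22ss the values were 360, 11.6 and 264, and at 30ss 10.4 to 37.8. In RC it had 1674 and 306 at 4ss, 219, 95.3 and 270 at 18ss, and at most 2.94 at 20ss. The gene was nearly silent in all siblings of some stages and back above 200 in some embryos of a later group.

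The deviations of other genes were set against the average of the 45 over all 50 embryos. Unlike the AC correlations between pairs, these include the AC stages that chose the 45, with 22ss among them. These correlations thus rest in part on the values that made the subset and are a description. Of the 150 other members tested, 22 had a correlation above 0.5 with that average, and the median was 0.16. The share of all genes tested with such a correlation was not counted, so nothing is read from that number. Among the members, the deviations of sox32 had a correlation of 0.77 with those of the 45 over the 50 embryos, mych one of 0.72, bmp2b (against the other 44) 0.70, ovol1a 0.61 and szl 0.50, whereas foxi1 had 0.12 and fn1a 0.02. At 22ss, a stage that chose the 45, sox32 had 504, 38.8 and 245 in the AC embryos, high in embryos 1 and 3 as the 45 were. irx7 and zic2a went the other way, with correlations of -0.47 and -0.64. Of the 234 named genes tested, 26 had a correlation above 0.5 and 27 had one under -0.5. The highest were gch2 (GTP cyclohydrolase, 0.93), sphk2 (a sphingosine kinase, 0.91), mib2 (0.88), josd1 (0.80) and esrra (0.79). The 26 also included bmper (a BMP modulator, 0.78) and the endoderm factor gata5 (0.71). Pigment cell genes, of a neural crest lineage, were among them too: dct (0.57), mlpha (0.53) and mitfa (0.51). Other pigment cell genes were not, such as slc24a5 (-0.26) and slc45a2 (-0.29). At the other end stood pax3a of the neural crest and somites (-0.75), s1pr2 (-0.71) and sox9b (-0.68). These named genes were picked after their values were seen. Of the 27 symbols listed for the yolk syncytial layer, the layer that lies against the yolk, only fn1a could be matched, and of the 41 for the enveloping layer and periderm only ovol1a and grhl3 (0.45), so that the part of these tissues in the pattern was not tested.

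**Figure D2:**
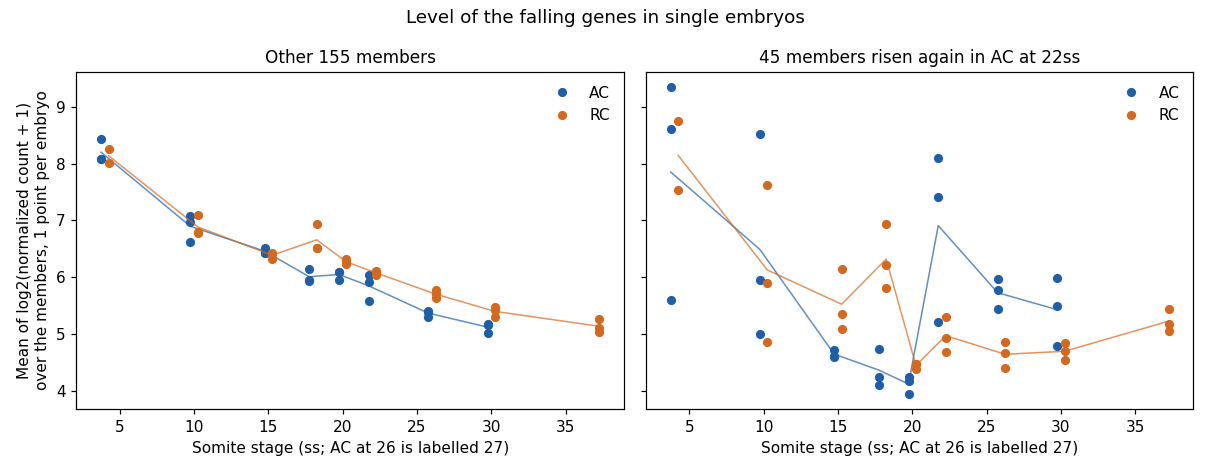
Mean of log2(normalized count + 1) over the other 155 members (left) and over the 45 members that rose again in AC at 22ss (right), 1 point per embryo against somite stage, lines through the group means, AC in blue and RC in orange. Siblings of a stage differ by up to 0.46 on the left, whereas on the right single embryos of some groups stand apart, such as 5.60 against 8.62 and 9.35 in AC at 4ss.

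**Figure D3:**
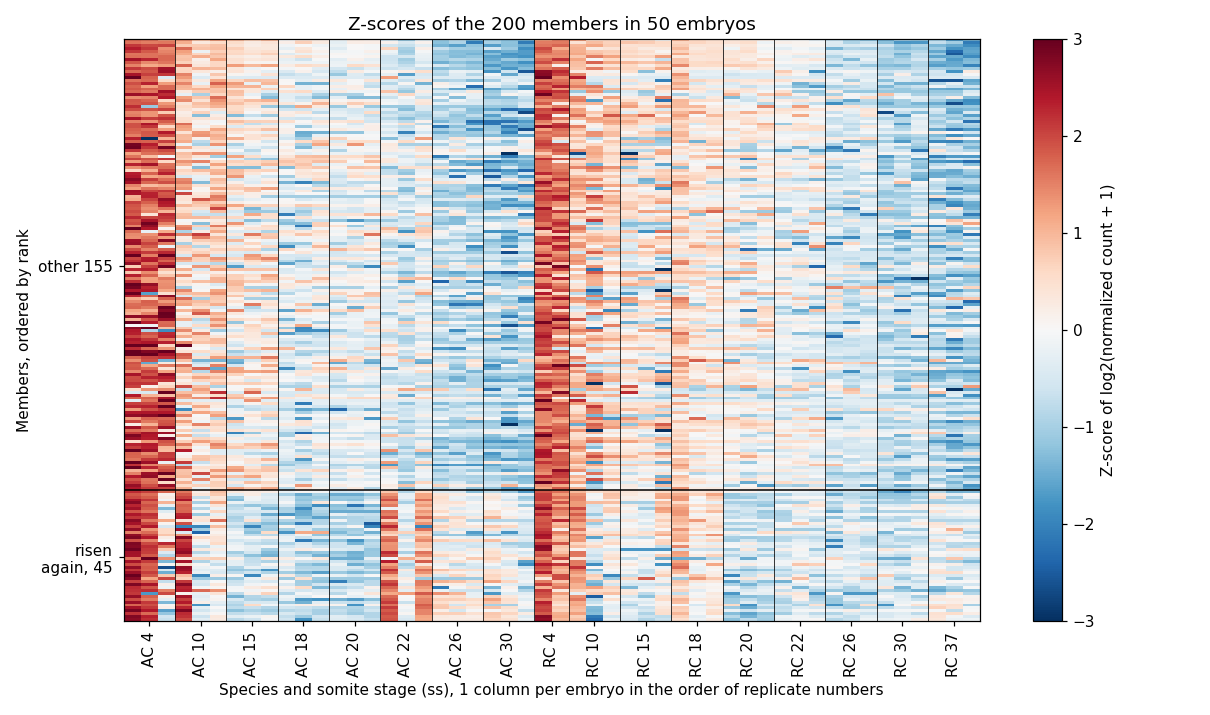
Z-scores of log2(normalized count + 1) of the 200 members (1 line each, the other 155 above the black line and the 45 below it, both in the order of rank) in the 50 embryos (columns, grouped by species and stage). In the 45, AC embryos 1 and 2 of 4ss, embryo 1 of 10ss and embryos 1 and 3 of 22ss are red beside paler or blue siblings.

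The species were compared at the 6 stages that the rule did not use for its ranking. The rule kept AC and RC within 1 log2 unit of each other at 4ss alone, and the comparison asks how the levels of these genes compared afterwards. At 30ss, whose falls the rule ranked, 21 members were called higher in RC and 1 lower, which is given as a description. The median difference there was 0.17, against -0.02 over all genes tested. The share of all genes called at 30ss was not counted, so nothing is read from this split. Standard errors (SE) are those of the log2 difference. A member was called at a Benjamini-Hochberg adjusted p under 0.05 over all genes tested and a fold change above 1.5, by limma. Of the 195 members 95 (48.7%) were called at none of the 6 stages, as were 57.4% of all genes tested, and 58 (29.7%) were called at 1, as were 23.1% of all. Calls at 2 stages were made for 23 members (11.8%, against 7.80% of all genes) and at 3 for 13 (6.67% against 3.73%), and 2 members each were called at 4, 5 and 6 stages (1.03% each, against 2.45%, 1.95% and 3.60%). All genes tested include those with a large species difference at 4ss, which the rule left out of the members. The low shares at 4 to 6 stages may follow from the rule, and nothing is read from them.

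At 18ss the members leaned to RC. There 48 were called higher in RC and 1 lower, where 10.3% and 10.6% of all genes were. The median RC minus AC difference was 0.73 on the log2 scale (quartiles 0.39 and 1.31), against -0.02 over all genes tested, and 175 of 195 were above 0. In 92 of the 200 every RC embryo lay above every AC embryo, and in 5 every one lay below. Without RC embryo 1 these counts were 98 and 9. Groups separate more easily with fewer embryos, so nothing is read from this rise. The share of all genes with such separation was not counted, so nothing is read from the counts of separated members. The 45 had 14 of the calls higher and the single one lower, with a median of 1.55, and the other 155 had 34 higher and none lower among 150 tested, with a median of 0.57. Without RC replicate 1, which leaves out the embryo of 18ss that was low in rising genes, 25 were called higher and 1 lower, and the median of the members was 0.59. Without AC replicate 2, 35 members were called in all. The 200 rising genes averaged 5.38, 6.93 and 6.88 in the RC embryos of 18ss and 7.58, 7.38 and 7.29 in the AC embryos. By this measure every RC embryo of 18ss lay below every AC embryo of 18ss. This was not particular to 18ss. Every RC embryo also lay below every AC embryo at 20ss (6.70 to 7.11 against 7.47 to 7.95). The same held narrowly at 26ss (8.53 to 8.72 against 8.73 to 8.88). At 10, 15 and 22ss the species overlapped. The part of the lower RC values of rising genes in the lean to RC at 18ss was not tested.

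ENSACLG00000019192, annotated to convergent extension, was among the members called at 18ss. Its normalized counts were 27650, 18420 and 15157 in RC and 6900, 4726 and 9162 in AC, so that the groups did not overlap. The difference was 1.56 (SE 0.22, limma adjusted p = 1.48e-06). fn1a had 13206, 9327 and 8679 in RC and 4817, 2000 and 3598 in AC, with a difference of 1.65 (SE 0.28, limma adjusted p = 2.75e-05). Both calls held with each replicate left out in turn. ENSACLG00000021576 was higher in RC by 1.49 at 18ss, by 1.37 at 22ss and by 2.47 at 26ss, where RC had 77.1 to 91.3 and AC 8.93 to 21.1. ENSACLG00000019566 was higher by 1.28, 1.5 and 1.39 at the same stages. ENSACLG00000007281, annotated to somitogenesis, was higher in RC at 15, 18, 22 and 26ss by 0.66 to 0.91, the last of these being lost on leaving out RC replicate 3 (0.57). ENSACLG00000000875 (rank 14) was called higher in RC at all 6 stages, by 0.77 to 1.24, the one at 20ss (0.77) being lost on leaving out AC replicate 3 (0.78) or RC replicate 1 (0.72) or 2 (0.67). ENSACLG00000002939 (rank 109) was higher by 1.60 to 2.26 at every stage from 15 to 26ss, and none of those calls was lost with a replicate left out. In single embryos of 26ss it had 307, 374 and 364 in RC and 76.9, 58.1 and 82.2 in AC, without overlap. ENSACLG00000011552 (rank 165), also among the 8 of largest species difference, went the other way. Its mean RC minus AC difference from 10 to 26ss was -1.12, with calls at 4 of the 6 stages. At 10ss it had 182, 265 and 185 in RC and 462, 525 and 875 in AC.

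At 15ss calls went both ways. Of the members 24 were called higher in RC, where 9.86% of all genes were, and 22 lower, where 13.4% were, with a median difference of 0.12. Without RC replicate 3, whose embryo of 15ss was low in rising genes, 16 were higher and 5 lower, and without AC replicate 1 the numbers were 24 and 13. Of the 3 members in the pluripotency and early neural plate list, irx7 and zic2a were higher and mych was lower. irx7 had 1135 to 1918 in RC and 504 to 849 in AC, a difference of 1.1 (SE 0.24, limma adjusted p = 0.000729), and it was also called at 20ss (1.14) and 26ss (1.01). zic2a had 1566 to 2182 in RC and 778 to 980 in AC, a difference of 1.0 (SE 0.25, limma adjusted p = 0.00198). fgf8a was higher by 1.43 and fn1a by 1.24. None of these calls was lost with a replicate left out, and that of fn1a was lost where the 15ss embryos were fitted alone.

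gata3 was lower in RC at 15ss, with 808 to 1818 against 2970 to 5012, a difference of -1.62 (SE 0.34, limma adjusted p = 0.000367), and this held with each replicate left out. It was also lower at 10ss (-1.07), a call lost on leaving out AC replicate 1 (-0.97) or 3 (-0.97) or RC replicate 2 (-0.52) or 3 (-1.06). ovol1a was lower at 15ss (-1.11) and lost its call on leaving out AC replicate 2 (-1.01) or 3 (-1.11) or RC replicate 3 (-0.67). mych was lower (-0.66), a call lost with any replicate left out except AC replicate 2 (the values ran from -0.54 to -0.70). bmp2b was higher by 1.0, lost on leaving out AC replicate 3 (0.89) or RC replicate 1 (1.07), 2 (1.11) or 3 (0.81). ENSACLG00000018705, annotated to erythrocyte differentiation, was lower (-1.78) and lost its call on leaving out RC replicate 3 (-1.05). At this stage gata3 was thus lower and irx7, zic2a, fgf8a and fn1a higher in RC whichever replicate was left out. The 15ss calls of ovol1a, mych, bmp2b and ENSACLG00000018705 were each lost on leaving out at least 1 replicate.

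szl changed sides. At 15ss its counts were 809, 423 and 803 in AC and 182, 221 and 77.2 in RC, a difference of -2.15 (SE 0.68, limma adjusted p = 0.0146). At 18ss they were 70.7, 180 and 128 in AC and 972, 318 and 225 in RC, a difference of 1.80 (SE 0.68, limma adjusted p = 0.0424), and at 22ss 13.9, 2.91 and 21.9 against 60.0, 64.8 and 28.3, a difference of 2.15 (SE 0.68, limma adjusted p = 0.0298). The embryos of the species did not overlap at any of these stages. The call of 15ss was lost on leaving out AC replicate 1 (-1.99) or 3 (-2.0) or RC replicate 3 (-1.69). That at 18ss was lost on leaving out AC replicate 1 (1.44) or 3 (1.86) or RC replicate 1 (1.18) or 2 (1.98), and that at 22ss without AC replicate 1 (2.37) or 2 (1.41) or RC replicate 1 (2.0) or 2 (1.94).

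The other stages gave fewer calls. At 10ss 6 members were higher in RC (6.87% of all genes) and 6 lower (7.27%), with a median of -0.08; without RC replicate 1, 15 were higher and 22 lower, without RC replicate 2 the numbers were 3 and 2, without AC replicate 2 they were 7 and 13, without AC replicate 1 5 and 2, and without RC replicate 3 3 and 3. At 20ss 11 were higher (5.23%) and 2 lower (6.71%), with a median of 0.33, and 7 and 3 without RC replicate 2. At 26ss 21 were higher (5.09%) and 5 lower (4.83%), with a median of 0.10, with 12 and 4 without AC replicate 3 and 11 and 2 without RC replicate 3. Where the embryos of a stage were fitted alone, 1 was higher and 2 lower at 10ss, 23 and 6 at 20ss, and 21 and 19 at 26ss. At 26ss there were 17 higher and 1 lower without AC replicate 1, 18 and 1 without RC replicate 1, and 17 and 3 without AC replicate 2. sp7 was higher in RC at 26ss, with 100 to 143 against 41.1 to 74.98, a difference of 1.15 (SE 0.29, limma adjusted p = 0.00564). This call was lost on leaving out AC replicate 2 (0.97) or RC replicate 3 (1.02).

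At 22ss 13 were higher (4.83%) and 14 lower (5.98%), with a median of 0.06. Of the 14 lower, 11 belonged to the 45 that AC at 22ss had chosen. Leaving out AC embryos 1 and 3 of 22ss, an alternative chosen after the values were seen, gave 13 higher and none lower, with the 1 AC embryo left assumed to vary like the other groups. Without AC replicate 1 there were 9 higher and 2 lower, without AC replicate 2 there were 8 and 22, and without AC replicate 3 there were 14 and 4. Without RC replicate 1 the numbers were 10 and 2, without RC replicate 2 they were 8 and 10, and without RC replicate 3 they were 10 and 4.

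**Figure D4:**
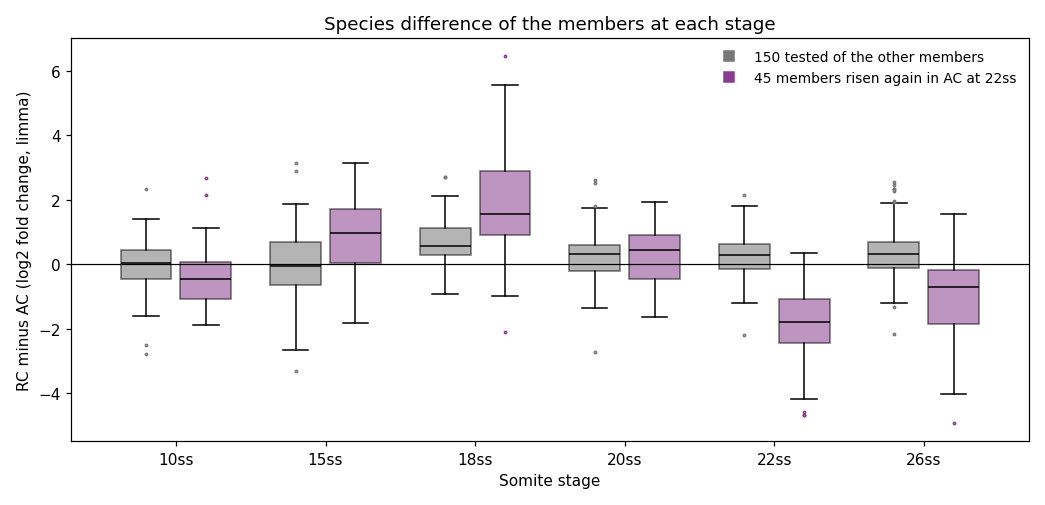
RC minus AC log2 fold changes of the tested members by limma at 6 somite stages, for the 45 members that rose again in AC at 22ss (purple) and the 150 tested of the other members (grey). Boxes show quartiles and median, whiskers reach 1.5 times the box length, and dots lie beyond. The medians lie above 0 at 18ss (1.55 for the 45 and 0.57 for the others), and that of the 45 lies at -1.80 at 22ss, the stage that chose them.

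Embryos can also be set side by side at unequal somite counts, since RC forms more somites. As a description, the median member was 0.31 higher in RC at 18ss than in AC at 15ss and 0.10 higher in RC at 22ss than in AC at 18ss. It was 0.68 lower in RC at 15ss than in AC at 10ss, and 0.18 lower in RC at 26ss than in AC at 20ss. The medians of the other genes tested were 0.01 to 0.05 in these 4 pairs of groups. At 18ss in both species the median member was 0.73 higher in RC. Without RC embryo 1 of 18ss, the members' medians were 0.14 against AC at 15ss and 0.54 against AC at 18ss, and without RC embryo 3 of 15ss the one against AC at 10ss was -0.67.

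The change from 10 to 22ss was tested as a stretch inside the fall. Both stages had to lie below 4ss by the rule, but the rule did not use the difference between them. It ranked the members by a fall that spans both stages, so a further fall inside it was favoured by the choice. The share of the other genes meeting the conditions that fell here was not counted, and the shares of all genes cannot replace it. The numbers of members lower, their medians and the p-values of single falls in this stretch are therefore a description. In AC 72 members were lower at 22ss, where 2.72% of all genes were, and 1 was higher, where 3589 of 21123 genes were, with a median of -0.79 against 0.07 over all genes. In RC 64 were lower (3.19% of all genes) and none higher, with a median of -0.83 against 0.07. Of the 72 in AC, 71 were among the other 155, and of the 64 in RC 59 were. Without RC replicate 2, whose embryo of 10ss was low in rising genes, 39 were lower in RC. Leaving out AC embryos 1 and 3 of 22ss gave 58 lower in AC and none higher.

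Among the 12 members with a symbol szl fell most in this stretch. Its fall was 6.94 in AC (SE 0.68, limma adjusted p = 1.38e-09) and 3.49 in RC (SE 0.68, limma adjusted p = 0.000201). irx7 fell by 2.23 in AC and by 2.05 in RC, and sp7 fell by 1.79 in AC and by 0.93 in RC, where the call was lost on leaving out RC replicate 2 (-0.59) or 3 (-1.06). gata3 fell by 1.38 and foxi1 fell by 0.91 in AC, while in RC they changed by 0.03 and 0.00 and were not called. zic2a fell by 1.337 in RC. No member had a 22 minus 10ss change that differed between the species by limma, where 0.346% of all genes did. At an unadjusted p under 0.05 there were 30, and edgeR and DESeq2 also called 0. Without RC replicate 1, 5 were called, and without AC replicate 3 or RC replicate 3, 1 each.

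RC embryos of 37ss were not used by the rule, but those of 22ss were. The last stage of the ranked fall lies between them, so a fall from 22 to 37ss repeats in part the fall that chose the members. The numbers lower and the single falls given here are therefore a description, and the shares of all genes are no measure of what followed. At 37ss 60 members were lower than at 22ss (3.02% of all 21212 genes tested in this fit) and none higher, with a median of -0.62 against 0.03. Fitted alone, these groups gave 70 lower and 5 higher. Of these 60, 59 were among the other 155. Without RC replicate 2, 34 were lower. Falls that held with each RC replicate left out were those of szl by 4.52, ENSACLG00000021576 by 4.04, ENSACLG00000015234 by 3.71, ENSACLG00000019566 by 1.98, sp7 by 1.59, ENSACLG00000007281 by 1.55, irx7 by 1.2 and foxi1 by 0.86. szl had 28.3 to 64.8 normalized counts in the 3 embryos of 22ss, and 4.04, 0 and 0.941 in those of 37ss. sox32 fell by 2.80 and gata3 by 1.36, calls lost on leaving out RC replicate 2 (-2.31 and -0.97), the former also without RC replicate 3 (-2.76).

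RC at 37ss was also set against RC at 30ss, which the rule used and at which members were chosen to be low. At 37ss 2 members were lower (0.146% of all genes) and none higher, with a median of -0.17 against 0.02. Of all 200 members, 123 had a lower mean at 37 than at 30ss. One of the 2 was ENSACLG00000021576, with 57.2, 22.0 and 34.9 at 30ss and 15.15, 11.5 and 5.65 at 37ss, a fall by 1.72 that was lost on leaving out RC replicate 1 (-1.65) or 3 (-1.36). Without RC replicate 1 there was 1 such member and without RC replicate 3 none, and where these groups were fitted alone none was lower and 3 were higher.

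The pathway genes around the members were looked up in fixed lists of symbols, of which few could be matched. Of 39 BMP and ventral symbols 7 were matched, and 4 of these are members (szl, bmp2b, gata3, foxi1). Between 10 and 22ss 5 of the 7 fell in AC, where 2.72% of all genes did, and 1 in RC, where 3.19% did. The 4 members were chosen for falling, and the difference between the species was not tested for the list. Of the non-members, the ectoderm factor tfap2a fell by 1.01 in AC and by less than the 1.5-fold threshold in RC (-0.43), and its relative tfap2c fell by 1.02 in AC, with 0.40 in RC. Of 41 tailbud symbols 4 were matched, and all 4 fell from 10 to 22ss in both species, beside the same 2.72% and 3.19% of all genes: the members fgf8a and szl (the latter also in the BMP list), the notochord factor noto (by 1.95 in AC and by 1.23 in RC) and fgf3 (by 1.01 and 1.31). Of these calls, that of fgf8a was lost in AC on leaving out AC replicate 1 (-1.2) and in RC without RC replicate 2 (-0.44) or 3 (-0.87). The genes of the lists that are not members were not refitted with replicates left out.

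Of 46 symbols for pluripotency and early neural plate 5 were matched, with irx7, zic2a and mych as members, and 3 fell from 10 to 22ss in AC and 4 in RC. The call of zic2a in AC (-0.75) was lost on leaving out AC replicate 2 (-0.49), and that of mych in RC (-0.64) without RC replicate 1 (-0.55), 2 (-0.57) or 3 (-0.78). gbx2, a midbrain-hindbrain boundary factor outside the members, fell by 1.2 in AC and by 2.0 in RC. Of 45 Nodal and mesendoderm symbols 4 were matched, and 2 fell in each species, sox32 and the BMP antagonist nog1. The call of sox32 was lost in AC (-2.66) without AC replicate 2 (-1.95) and in RC (-1.83) without RC replicate 1 (-1.21), 2 (-2.36) or 3 (-1.91). Of 46 segmentation symbols 5 were matched and none is a member; aldh1a2, which makes retinoic acid in the somites, fell by 1.28 in AC and by 1.01 in RC, and pax7a rose by 2.12 and 1.73. Of 48 muscle symbols 2 were matched: the early myogenic factor myf5 fell by 1.35 and 1.24, and chrna1, a subunit of the muscle acetylcholine receptor, rose by 2.38 and 2.03. Of 53 Hox and retinoic acid symbols 3 were matched, of which aldh1a2 fell in both species and meis3 in RC. Of 49 cell cycle symbols 1 was matched, nusap1, which was not called, and of 31 stress symbols 1, hspa5, which was called lower in AC. In AC hspa5 was near the floor, with group means of 4.48 at 4ss and 0.307 at 30ss. In RC these means were 412 and 119, and its change from 10 to 22ss (-1.02) was not called. Of the yolk syncytial layer fn1a fell in AC (-0.81), a call lost on leaving out AC replicate 2 (-0.56), and of the enveloping layer neither gene was called. No symbol was matched for egg and germ cell, hatching gland, blood or neuron, so these tissues were not tested.

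Genes outside the members shared their profile. Over the 16 group means from 4 to 30ss, the 5 tested non-members most like the mean Z-score profile of the members had Pearson correlations of 0.968 to 0.973, led by ENSACLG00000014741, and ranked as low as 595 by the rule. Genes with a symbol and a similar profile included tfap2a (0.956), gata5 (0.923) and prdm1a (0.908), picked after their values were seen. tfap2a fell by 2.17 in AC and by 1.58 in RC from 4 to 30ss in log2 means and stood at rank 244. These correlations are over group means, which share the order of the stages.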

How the data were processed

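RNA was measured in 50 single embryos by stranded poly-A sequencing. The authors trimmed reads with TrimGalore, mapped those of both species to the AC genome (fAstCal1.2) with STAR, counted unique reads per gene in the manner of HTSeq-count and deposited them as DESeq2-normalized counts, a signal scaled by size factors. Reads of RC were thus counted on the genome of another species, whose effect on RC levels was not tested. Whole reads could be recovered for 100% of values, at 17619762 to 27454591 per embryo. The authors' 17 group-mean columns were not used, and 0 per-sample columns were left unmapped.

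log2(normalized count + 1) was fitted with limma 3.58.1 (R 4.3.3, trended eBayes) on 16 group means of 47 embryos, or on all 50 embryos for 37ss, for genes that reached 10 normalized counts in 2 or more embryos. Each of the 11 comparisons was adjusted by Benjamini-Hochberg over all genes tested, and calls needed an adjusted p under 0.05 and a fold change above 1.5. Fold changes are on that log2 scale, which understates the change of low genes. edgeR 4.0.16, DESeq2 1.42.0, other pseudocounts and filters, quantile normalization and left-out replicates were alternatives. The fit was tested on simulated data. Embryos of a group are siblings, so p-values measure the spread within a clutch.

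The members and lists were chosen with earlier results of these data known. Named members were the 10 of highest rank, the 8 of largest species difference among those called at 2 or more of 6 stages, the 5 of largest change to 37ss, and members of the lists; members with ontology terms, the 45 and 155 genes and the rising genes were chosen after values were seen. Gene names came from the study's supplement alone.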

Additional observations from a re-analysis of the deposited data

Results flagged for a closer look

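In 5 members all RC embryos lay on one side of all AC embryos at one stage and on the other side at another, with calls by limma at both. The difference between the stages was not tested. The share of all genes that change sides in this way was not counted, so nothing is read from the number of members. For szl the RC minus AC log2 difference was -2.15 at 15ss, 1.80 at 18ss and 2.15 at 22ss. ENSACLG00000017012 (rank 8) had 6.45 at 18ss, -4.15 at 22ss and -3.88 at 26ss. ENSACLG00000010823 (rank 32) had 3.69, -4.68 and -4.02 at these stages, ENSACLG00000005076 (rank 57) had 5.33, -4.66 and -4.90, and ENSACLG00000026553 (rank 49) had 2.53 at 18ss and -3.11 at 22ss. The last 4 genes belong to the 45 that rose again in AC at 22ss, which AC at 20 and 22ss chose. Averaged over the 45, the AC embryos were low from 15 to 20ss alike, at 3.95 to 4.74. The values of these 4 genes at 18 and 22ss are therefore a description.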

How the results depend on the processing

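Of 178 counts under alternatives, 147 stayed within 1.5 times the count reported, and of 1044 values of 73 called results of named members 933 kept the call, 111 lost it and 0 changed sign. Fitting the groups of a comparison alone gave 3 members called at 10ss (12 reported), 29 at 20ss (13) and 40 at 26ss (26), the last split into 21 higher and 19 lower (21 and 5 reported), and between 37 and 30ss 3 higher and none lower (none and 2 reported). A log2 fold change above 1 gave 29 at 15ss (46) and 8 at 20ss (13). DESeq2 gave 43 at 22ss (27) and 5 between 37 and 30ss (2), and a pseudocount of 10 gave 17 at 26ss. Quantile normalization gave 111 members lower at 22 than at 10ss in AC (72), 107 in RC (64) and 6 between 37 and 30ss; it moved the median of all genes from 0.07 to -0.13 in AC and to -0.14 in RC, and that of the members to -1.13 and -1.31. Leaving out AC embryos 1 and 3 of 22ss gave 13 at 22ss. The causes were not tested. With each replicate left out in turn the counts ranged from 5 to 37 at 10ss, 21 to 47 at 15ss, 26 to 50 at 18ss, 10 to 14 at 20ss, 11 to 30 at 22ss and 13 to 20 at 26ss. They ranged from 57 to 75 for AC and 39 to 68 for RC between 22 and 10ss, from 0 to 5 for the difference of these changes, from 34 to 62 for 37 against 22ss and from 0 to 3 for 37 against 30ss. Embryos that share a replicate number within a species had deviations with a mean correlation of 0.01 in AC and 0.00 in RC. No pairing by number was thus seen on average, but a link in part of the genes or stages was not tested. With the replicate block the counts were 13, 48, 53, 14, 29 and 27 from 10 to 26ss, 75, 64 and 0 for the 22 minus 10ss changes, and 60 and 2 for 37ss. The rule itself kept 128 of the 200 members under quantile normalization, 129 without RC replicate 1, 150 without RC replicate 3 and 160 to 183 under the other alternatives planned.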
